A study of Homo sapiens with 4 samples.

Results

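The cytosolic ribosomal protein genes encode the protein part of the ribosome that translates nuclear-encoded mRNA. Here they were taken as the protein-coding genes of GENCODE 44, in its version lifted to hg19, with a symbol of RPL or RPS and a number, together with RPLP0, RPLP1, RPLP2 and RPSA. S6 kinases, readthrough transcripts and pseudogenes were left out. This gave 87 genes among 19881 protein-coding genes, 53 of the large and 34 of the small ribosomal subunit. The promoter of each gene was the sequence up to 1000 bp away from the start of its canonical transcript, upstream and downstream. Positions are given below in bp from that start site along the direction of transcription, so that negative ones lie upstream.

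HEK293 cells, a human embryonic kidney line, had been transfected transiently with dCas9-SunTag, with an antibody-coupled fusion of the DNMT3A and DNMT3L C-terminal parts carrying wild type DNMT3A (Ab-3A3L), and with an sgRNA to the CpG island of ISG15, a gene outside the group described here. The dCas9-SunTag scaffold carries several copies of the effector to the target of the sgRNA, while effector that is not bound can reach other DNA. Cells carrying all plasmids were sorted after 3 days, and methylated DNA was pulled down with MBD2 and sequenced (MBD-seq). There were 4 libraries, 1 for each condition, and the values below come from the authors' list of 12864 peaks that were new in the wild type library against untreated cells; the other 3 libraries were not analysed here. With a single library there was no replicate, so no difference below has a test. The 95% intervals are exact (Clopper-Pearson for shares, Poisson for fragments). Those of shares treat promoters as independent draws, and those of fragments cover counting error only. Neither kind holds the spread between libraries.

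Apart from the paralogues of some members, each ribosome holds in general a single copy of each of these proteins, and their genes are expressed together in all dividing cells. Their promoters are compact, mostly lie in CpG islands, and begin transcription at a cytosine followed by a tract of pyrimidines, the terminal oligopyrimidine (TOP) motif, through which mTOR signalling controls the translation of the mRNAs. CpG islands of active promoters are unmethylated in most cells, and DNMT3A with its partner DNMT3L sets new methylation on CpGs. A new peak marks DNA that bound MBD2 more in the treated library than in untreated cells. A promoter without a new peak was not shown to be unmethylated, since the list holds no value for it.

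The sequences just upstream of the start site are shown for 3 of the members with the highest peaks, so that the CpGs there can be set beside those of promoters without a new peak. All are hg19 sequence, 5′ to 3′ on the gene's strand, the 120 bases ending at the base before the start site, with each CpG in capitals. Members with a new peak were these.
RPLP1 (chr15:69745037-69745156, plus strand): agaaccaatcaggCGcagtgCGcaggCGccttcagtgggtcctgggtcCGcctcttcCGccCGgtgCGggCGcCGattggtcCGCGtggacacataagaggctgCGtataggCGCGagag
RPL36AL (chr14:50087345-50087464, minus strand): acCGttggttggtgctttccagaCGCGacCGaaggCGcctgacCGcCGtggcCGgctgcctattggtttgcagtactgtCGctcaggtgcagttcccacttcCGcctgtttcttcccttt
RPL15 (chr3:23958503-23958622, plus strand): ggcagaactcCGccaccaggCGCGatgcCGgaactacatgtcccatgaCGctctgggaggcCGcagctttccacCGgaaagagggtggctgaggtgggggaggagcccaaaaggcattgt
The members without a new peak that had the most CpGs were these.
RPL10 (chrX:153626598-153626717, plus strand): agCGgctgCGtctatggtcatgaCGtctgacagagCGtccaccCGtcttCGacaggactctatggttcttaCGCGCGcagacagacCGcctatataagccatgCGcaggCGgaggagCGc
RPS15 (chr19:1438275-1438394, plus strand): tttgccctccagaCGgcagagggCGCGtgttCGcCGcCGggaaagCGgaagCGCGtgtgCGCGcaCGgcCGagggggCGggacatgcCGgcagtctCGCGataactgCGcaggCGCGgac
RPS21 (chr20:60962039-60962158, plus strand): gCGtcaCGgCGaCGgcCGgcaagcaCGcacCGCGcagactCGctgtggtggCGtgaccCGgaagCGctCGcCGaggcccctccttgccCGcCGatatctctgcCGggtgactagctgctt
RPL35 (chr9:127624237-127624356, minus strand): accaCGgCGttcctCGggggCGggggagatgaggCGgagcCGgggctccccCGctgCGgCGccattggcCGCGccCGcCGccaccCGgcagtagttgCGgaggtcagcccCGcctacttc
The 120 bases held 14 CpGs at RPLP1, 10 at RPL36AL and 7 at RPL15, against 13 at RPL10, 20 at RPS15, 17 at RPS21 and 16 at RPL35. The 4 without a peak were picked for their many CpGs, so that these counts show single promoters and not how the kinds differ, for which the medians over all members are given below.

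The start sites themselves are shown for the same genes to display the TOP motif. Each run has the 10 bases before and the 20 bases from the start site on, with the uninterrupted pyrimidines from the start site in capitals.
RPLP1 (chr15:69745147-69745176, plus strand): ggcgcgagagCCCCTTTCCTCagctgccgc
RPL36AL (chr14:50087325-50087354, minus strand): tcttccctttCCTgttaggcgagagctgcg
RPL15 (chr3:23958613-23958642, plus strand): aaggcattgtgggagtacagctctttcctt
RPL10 (chrX:153626708-153626737, plus strand): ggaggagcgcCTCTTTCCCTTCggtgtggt
RPS15 (chr19:1438385-1438414, plus strand): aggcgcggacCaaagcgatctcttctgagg
RPS21 (chr20:60962149-60962178, plus strand): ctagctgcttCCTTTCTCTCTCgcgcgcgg
RPL35 (chr9:127624217-127624246, minus strand): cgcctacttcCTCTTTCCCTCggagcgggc
The tract ran over 11 bases at RPLP1 and RPL35 and over 12 bases at RPL10 and RPS21, so that it occurred in promoters with and without a new peak. RPL15 had no pyrimidine at its annotated start and RPS15 only the first, so that the tract was missing at the annotated start of members of both kinds.

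A new peak overlapped the promoter in 14 of the 87 genes, which is 16.1% (95% interval 9.09 to 25.5). Among all protein-coding promoters the share was 42.1%, and among the 14364 with a CpG island it was 57.7%. Since 81 of the 87 ribosomal protein promoters overlapped an island, the comparison within islands is the closer one, and there 17.3% (9.78 to 27.3) of the members had a new peak. The other 6 members, RPS27A, RPS4Y2, RPL4, RPL35A, RPL3L and RPL34, had no peak, which tells little, since 6 promoters give an interval of 0 to 45.9% and only 1.49% of the protein-coding promoters without an island had one. Among the 14 genes were RPL7, RPLP1, RPL36AL, RPL15, RPL8, RPL27A, RPL26, RPLP2, RPL10A, RPL13, RPS2, RPL7A and RPL30. New peaks were thus less frequent at ribosomal protein promoters than at protein-coding promoters as a whole, with an interval that ends below both shares of the background.

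The members' CpG content was close to that of all protein-coding genes and lower than that of those with an island. The median promoter held 102 CpGs (quartiles 85 and 119.5, range 51 to 178), against 96 for all protein-coding genes and 116 for those with an island. Their islands were smaller, with a median of 66 CpGs against 92. Their median GC content was 53.3%, and that of all protein-coding promoters was 56.0% and of those with an island 58.6%.

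Within the ribosomal protein genes, every new peak lay at a promoter with at least 107 CpGs. The called promoters had a median of 134 CpGs (107 to 178) and the others one of 93 (from 51 to just under 150), so that the ranges overlapped. None of the 41 members with fewer than 100 CpGs had a new peak, which allows a share of up to 7.32% by a floor of 3 counts and up to 8.60% by the exact interval, whereas 16.2% of the 10417 protein-coding promoters in that range had one. Of the 46 members with 100 or more CpGs, 14 had a peak, or 30.4% (17.7 to 45.8), against 70.6% of 9464 protein-coding promoters.

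In narrower classes the members stayed below the other genes except at the top. With 80 to 99 CpGs, 0 of 24 members had a new peak against 41.1% of all protein-coding promoters. With 100 to under 120 CpGs, 5 of 24 did (20.8% against 60.1%), and with 120 to under 150, 5 of 18 (27.8% against 70.2%). All 4 members with at least 150 CpGs, namely RPL8, RPLP2, RPL13 and RPS2, had a new peak, where the share of all genes was 78.9%. By the size of the island the members were below the other genes in the top class as well, with 3 of 6 (50%) against 73.9% at 150 or more island CpGs. Further, 7 of 14 members with 100 to under 150 island CpGs had a peak against 74.5% of the protein-coding genes, and 0 of 23 with 1 to 49 against 21.7%.

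**Figure D1:**
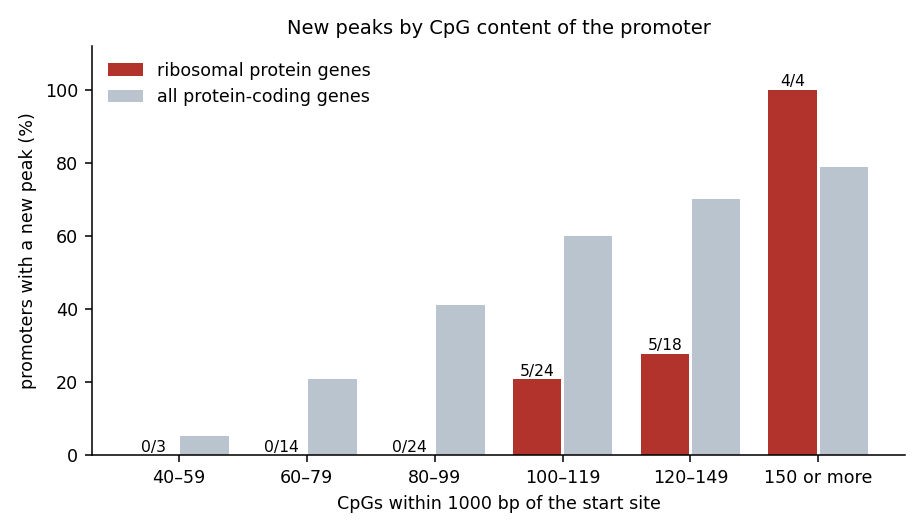
Share of promoters with a new peak (y axis, percent) by the number of CpGs within 1000 bp of the start site (x axis), for ribosomal protein genes (red, with the number called over the number in the class) and all protein-coding genes (grey). The red bars are at 0 up to 99 CpGs and reach 27.8% at 120 to under 150 CpGs, where the grey bar is at 70.2%; only in the class of 150 or more, with 4 members, is the red bar the higher.

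Both flanks contributed to the CpG content of the called members. They had a median of 75.5 CpGs upstream and 58 downstream of the start site, against 47 and 48 in the members without a new peak. RPL36AL was the extreme upstream, with 104 CpGs there and 45 downstream, and RPL8 the extreme downstream, with 77 and 101. In the 300 bp from 250 bp upstream to 50 bp downstream, the called and the other members were closer, with medians of 28 and 23.

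**Figure D2:**
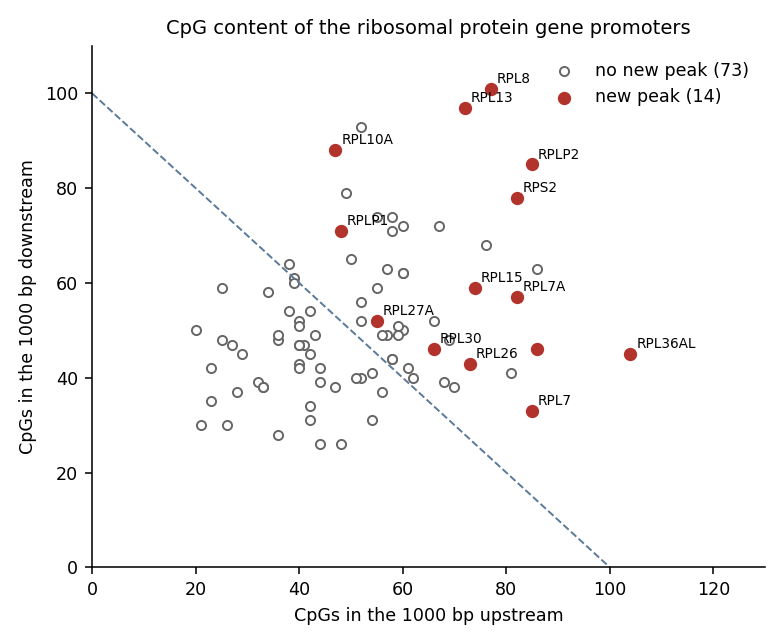
CpGs in the 1000 bp upstream (x axis) and downstream (y axis) of the start site of each ribosomal protein gene, filled where the promoter had a new peak (14) and open where it had none (73); the dashed line marks 100 CpGs in all. No filled point lies below the line, and open points are mixed with filled ones above it.

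The proteins of the large subunit, which forms the peptide bonds, and of the small subunit, which reads the mRNA, had new peaks at unequal shares. There were 12 among 53 large subunit genes, or 22.6% (12.3 to 36.2), and 2 among 34 small subunit genes, RPS2 being among them, or 5.88% (0.720 to 19.7). The intervals overlapped, and both groups had a median of 102 promoter CpGs. The 10 paralogues, copies that stand in for a main protein or are expressed in few tissues, included a single gene with a peak, RPL36AL, while 13 of the 77 others had one (16.9%).

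RPL7, a large subunit protein, had the highest peak. It reached 32 fragments at its summit against a background of 0.611, the lowest of the list, and a fold of 20.5 (14.2 to 28.7). The fold is the ratio of the fragments to the background after 1 is added to each. The fold of RPL7 was above that of 99.5% of the peaks of the list, whose median fold was 7.45. The peak (chr8:74206493-74207913) reached from −2045 to −625 bp and overlapped the promoter by only 376 bp. Its summit lay in the first, coding exon of RDH10, a retinol dehydrogenase gene that starts 969 bp upstream on the opposite strand.

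RPLP1 encodes an acidic protein of the stalk that recruits elongation factors. Its peak (chr15:69745058-69745758) had 21 fragments against 0.790 and a fold of 12.3 (7.82 to 18.5). It spanned the start site, from −99 to 601 bp, with 70 CpGs, and its summit lay in an intron of RPLP1. The partner in the stalk, RPLP2, also had its peak (chr11:809957-810498) over the start site and into the gene, from −10 to 531 bp. There 21 fragments stood against 2.25, a fold of 6.77 (4.31 to 10.2), with the summit in an untranslated part of exon 2. RPLP0, the anchor of both stalk proteins, had 118 CpGs in its promoter and no new peak within 6056 bp.

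RPL36AL, the paralogue of RPL36A, had a peak (chr14:50087292-50088364) with 17 fragments against 0.611 and a fold of 11.2 (6.77 to 17.5). It reached from −1020 to 52 bp and so held the start sites of both RPL36AL and MGAT2, an N-glycosylation enzyme gene 173 bp upstream on the opposite strand. The summit was 811 bp upstream, in the coding exon of MGAT2. RPL15 (chr3:23957964-23958515; 14 fragments, fold 9.31, 5.37 to 15.2) had its peak from −659 to −108 bp, over the start of NKIRAS1, an inhibitor of NF-κB signalling.

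The 200 bases around the summit are shown for RPLP1, whose summit window held no untranslated region, since they show how dense the CpGs were where MBD2 bound most. The window is hg19 sequence on the strand of the gene, with CpGs in capitals.
RPLP1 (chr15:69745345-69745544, plus strand): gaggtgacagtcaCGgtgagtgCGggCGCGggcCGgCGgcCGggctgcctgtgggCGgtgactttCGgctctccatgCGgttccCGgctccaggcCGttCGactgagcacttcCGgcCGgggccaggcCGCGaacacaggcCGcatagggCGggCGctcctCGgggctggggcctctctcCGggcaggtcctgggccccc
It held 22 CpGs.

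RPL8 lies near the centre where peptide bonds form. Its peak (chr8:146017246-146017629) lay wholly downstream, between 146 and 529 bp, with 14 fragments against 0.843 and a fold of 8.14 (4.70 to 13.3). The summit was in coding exon 1, and the promoter had the most CpGs of all members, 178. RPL13 likewise had its peak only downstream (chr16:89627199-89627801; 109 to 711 bp), with 14 fragments against 1.65, a fold of 5.66 (3.27 to 9.24) and the summit in coding exon 2. These were the members with peaks confined to the transcribed side.

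RPS2, a small subunit protein near the entry of the mRNA, had a wide peak (chr16:2014310-2015400; 1091 bp, 115 CpGs) across the start site with 21 fragments. Its background was higher, at 2.90, and the fold was 5.65 (3.59 to 8.49). The start of SNHG9, a small nucleolar RNA host, was inside this peak.

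RPL10A, the protein of the L1 stalk that guides the leaving tRNA, was the only member with more than 1 peak at its promoter. The higher (chr6:35435736-35436280) had 9 fragments against 0.611 and a fold of 6.21 (3.18 to 11.2), covered the start site, and had its summit 106 bp upstream. The other (chr6:35436562-35437095) lay 384 to 917 bp downstream with 8 fragments and a fold of 5.59. With 9 and 8 fragments, both stood close to the smallest number that was called at this background, which was 6.

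The remaining large subunit genes had peaks upstream only. RPL27A (chr11:8703765-8704103) had 12 fragments and a fold of 7.67 (4.25 to 13.0) in an intron of TRIM66, and RPL26 (chr17:8286864-8287304), whose protein contacts the exit tunnel, had 16 fragments and a fold of 7.12 (4.25 to 11.3). RPL7A (chr9:136214404-136214918) had 27 fragments, the second highest number among the members, but its background of 4.69 set the fold at 4.92 (3.30 to 7.08). RPL30 (chr8:99058121-99058392) had the lowest fold, 4.79 (2.45 to 8.66), from 9 fragments and only 20 CpGs under the peak.

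Where a ribosomal protein promoter did have a peak, its height was within the range found at other genes. The median fold was 7.40 (quartiles 5.80 and 9.02), against 8.26 (6.21 and 11.0) at all called protein-coding promoters, and their summits had a median of 16.5 fragments against 17. The median width was 548.5 bp against 594 bp. The folds of 7 of the 14 (50%) were at or above the median of the list, against 61.5% of those at all called protein-coding promoters. The intervals of neighbours in this order overlapped throughout, and the interval of RPL7 overlapped only those of RPLP1, RPL36AL and RPL15.

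The position of the peaks was described from the canonical start site, and it changed with that choice. The canonical start site lay inside a new peak in 5 members, RPLP1, RPL36AL, RPLP2, RPL10A and RPS2, which is 5.75% of the 87 (1.89 to 12.9) against 27.1% of all protein-coding genes. Among called promoters this was 5 of 14, or 35.7% (12.8 to 64.9), against 64.4%, a value that this interval contains. Peaks were confined to the upstream side in 7 of the 14 members and in 8.54% of the called protein-coding promoters. Those confined to the downstream side made up 14.3% of the members and 22.3% of the others.

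The summits lay upstream of the canonical start site in 10 of 14 members (71.4%, 41.9 to 91.6) and in 29.3% of all called genes, with a median position of −419.5 bp against 165 bp. Only RPL10A had its summit within 250 bp of the start site, 7.14% of the members against 45.7%. When the start sites of all protein-coding transcripts were allowed, the difference among called promoters was no longer seen: 11 of 16 called members (68.8%, 41.3 to 89.0) had a start site in a new peak against 74.7% of the called protein-coding genes, RPL7, RPL8, RPL15, RPL6 and RPS29 being among those added. Measured from the nearest of these starts, 8 of 16 summits lay upstream (24.7 to 75.3%) against 35.2%, and the median position was 0.5 bp. Over all 87 members the share with a start site in a peak was then 12.6% (6.48 to 21.5), against 33.3% of all protein-coding genes. RPL6 and RPS29 had no new peak within 9056 and 12053 bp of their canonical start, so that the starts concerned are distant ones.

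**Figure D3:**
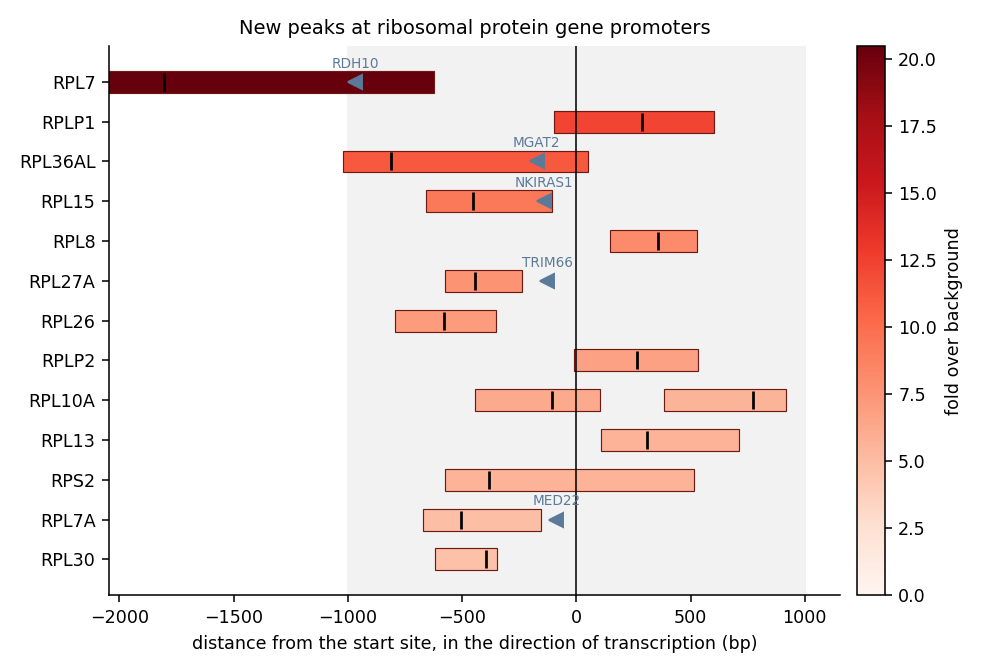
New peaks (bars, coloured by fold over background) at 13 of the 14 called ribosomal protein promoters by distance from the canonical start site in bp; black ticks are summits, blue triangles are start sites of genes on the opposite strand, and the grey field is the promoter. Bars lie mainly to the left of the start site and cross it in 5 genes.

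The positions that follow were also taken from the canonical start site and depend on that choice. Per 100 bp, the share of ribosomal protein promoters covered by a new peak was highest between 500 and 300 bp upstream, at 10.3% (9 genes). It was 5.75% (5 genes) at the start site. For all protein-coding genes it rose from 11.3% at 500 to 400 bp upstream to 32.7% at 100 to 200 bp downstream. Beyond 500 bp upstream the members and all protein-coding genes had similar shares, with 9.20% against 8.74% at 600 to 500 bp. Protein-coding promoters with an island were above the members there, at 12.1%, and reached 45.0% at 100 to 200 bp downstream. The members' mean CpGs were highest just upstream of the start site, at 9.44 per 100 bp. All protein-coding genes had 8.57 there and those with an island 11.1. Just downstream the members had 8.10, against 8.35 and 10.7. Whether CpG content has a part in the lower coverage was not tested.

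**Figure D4:**
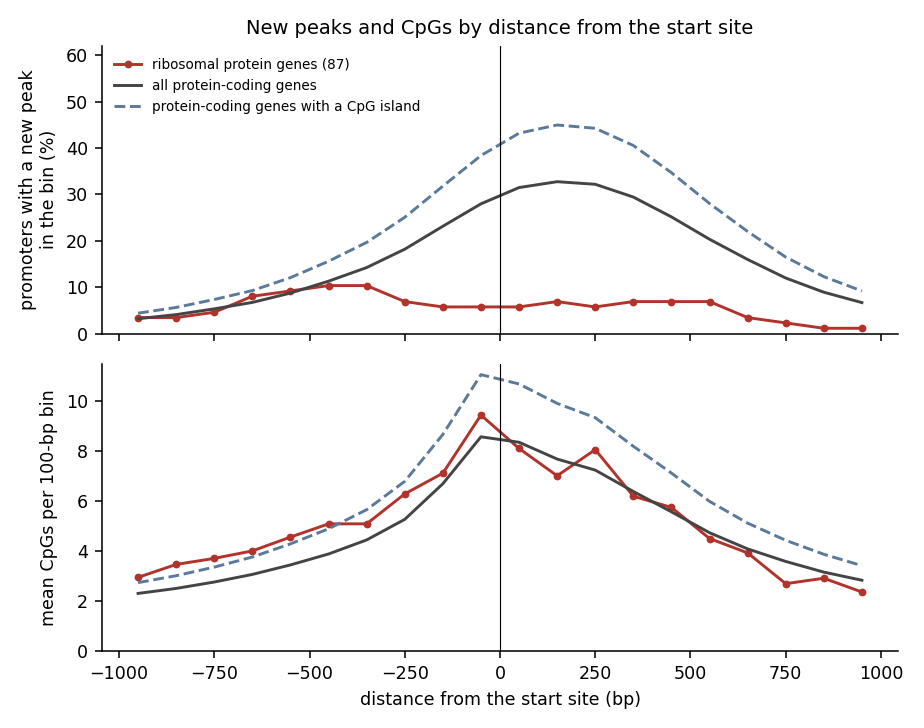
Share of promoters with a new peak in each 100-bp bin (top, percent) and mean CpGs per bin (bottom) by distance from the canonical start site. Ribosomal protein genes are red, all protein-coding genes black, and those with a CpG island blue and dashed. The red curve in the top panel stays at 10.3% or below. It is lower at the start site (5 genes) than 300 to 500 bp upstream (9 genes), while the black curve peaks at 32.7%. In the bottom panel all curves peak just upstream of the start site.

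Of the 10 summits upstream of the start site, 8 lay within another annotated gene, a share with an interval of 44.4 to 97.5%, against 47.5% of the upstream summits at all called genes. They were RDH10, MGAT2, NKIRAS1, TRIM66 and MED22, a Mediator subunit gene, and the long noncoding RNA genes SNHG9 and, at RPL26 and RPL30, 2 without a symbol (ENSG00000288750 and ENSG00000288752). None of the 4 downstream summits did, against 23.1%. The upstream summit of RPL10A lay outside any other gene. At RPL7, RPL15 and RPL30 the summit also lay within the member's own gene, though outside its canonical transcript, so that both annotations overlapped there.

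Head-to-head promoters, with the start of another protein-coding gene on the opposite strand within 1000 bp upstream, gave 5 of these 8. There were 14 such members, and 5 had a new peak (35.7%, 12.8 to 64.9), against 9 of the 73 others (12.3%, 5.80 to 22.1). In all protein-coding genes the shares were 50.8% and 41.2%. At all 5, RPL7, RPL36AL, RPL15, RPL27A and RPL7A, the summit was nearer to the start of the partner than to that of the ribosomal protein gene and lay inside the partner gene, 312 to 835 bp from its start. A summit nearer to another protein-coding gene's start was found at 35.7% of the called members and 8.91% of all called genes. The 9 head-to-head members without a peak were RPL35, RPL12, RPS28, RPS25, RPL9, RPL18, RPS27A, RPS18 and RPL4, with partners such as ARPC5L 173 bp from RPL35 and LRSAM1 104 bp from RPL12.

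Many ribosomal protein genes carry small nucleolar RNAs, which guide the modification of ribosomal RNA, in their introns. The 33 members tagged as hosts of such or other noncoding RNAs had 8 new peaks (24.2%, 11.1 to 42.3), and the 54 others had 6 (11.1%, 4.19 to 22.6). Among all protein-coding genes, hosts had 53.9% and others 40.6%. The host members also had more CpGs, with a median of 107 against 93, and the part of this in the difference was not tested.

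Leaving out those on Y, the 71 promoters without a new peak had the nearest one at a median of 22385 bp from the start site (quartiles 9766 and 52182). This was nearer than for all protein-coding promoters without a new peak, with a median of 65455 bp, and for those with an island, with 50646 bp. It was over 10000 bp away for 52 members (73.2%) and for 88.8% of the protein-coding genes. RPS15 (1423 bp downstream, fold 5.53), RPS7 (1579 bp upstream, fold 4.07) and RPL41 (1676 bp downstream, fold 4.67) were the only members with a peak between 1000 and 2000 bp. RPL7, whose peak began 625 bp away, was the called member with its peak farthest from the start site.

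Some of the promoters without a peak were rich in CpGs. RPL10, which joins the large subunit late in its assembly, had just under 150, as many as RPL36AL. RPS15 had 145, RPS21 144 and RPL35 139. RPL28 and RPS19, the latter the gene most often mutated in Diamond-Blackfan anaemia, each had 132. RPL36 followed with 129, RPS7 with 128, and RPL12 and RPL26L1 with 122. These 10 had a CpG island, with 86 CpGs at RPL26L1 to 281 at RPL28.

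RPL5 and RPL11, which bind MDM2 together with ribosomal RNA when ribosome assembly fails, had 84 and 83 CpGs and no new peak within 46507 and 51221 bp. RPS6, the substrate of the S6 kinases, had 92 CpGs, and its nearest new peak was 148954 bp away. RPS3 had 73 CpGs, RPSA 85 and RPL3 117, all without a peak. RPS27A, which is made as a fusion with ubiquitin, had 82 CpGs and no island or peak.

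The members on the sex chromosomes had no new peak. On X these were RPL10, the richest in CpGs of all members without a peak, RPL39 with 110, RPS4X with 87 and RPL36A with 71, and 8.44% of the 841 protein-coding genes of X had one. The 2 on Y, RPS4Y1 and RPS4Y2, had 86 and 75 CpGs, and 0 of the 62 genes of Y had one. HEK293 cells are known to carry no Y chromosome, so these genes could not give a peak, although they are counted among the 87. On the autosomes, 14 of 81 members had a peak (17.3%), against 43.7% of 18978 protein-coding genes.

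The sequence around the start site was distinctive in part, and the differences between called and other members were not tested. A start at C with at least 4 further pyrimidines was found in 60 members (69.0%) and in 4.59% of protein-coding genes, and 11 of these 60 had a new peak (18.3%, 9.52 to 30.4), against 3 of the 27 others (11.1%, 2.35 to 29.2). In the 300 bp around the start site, both strands searched, CCGGAA, the core bound by ETS factors, was present in 56.3% of members and 22.8% of all protein-coding promoters. AAGATGG, the core of the YY1 motif, was present in 17.2% and 6.41%. GGGCGG, the GC box bound by SP1, was present in 58.6% and 61.4%, and TATAAA, the TATA box, in 9.20% and 9.62%. Protein-coding promoters with an island held GGGCGG more often than the members, at 77.9%. They held the other motifs less often, with CCGGAA at 28.8%, AAGATGG at 6.80% and TATAAA at 4.999%. The share of TATAAA among the members rests on 8 promoters. Of the 14 called members, 9 held CCGGAA (64.3%), and of the 73 others 40 (54.8%). For GGGCGG these were 10 (71.4%) and 41 (56.2%), for AAGATGG 2 (14.3%) and 13 (17.8%), and for TATAAA 2 (14.3%) and 6 (8.22%).

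Gene groups with related functions gave other shares, to be set beside 42.1% of all protein-coding promoters and 57.7% of those with an island. The 78 proteins of the mitochondrial ribosome, encoded in the nucleus and imported, had 22 promoters with a new peak (28.2%, 18.6 to 39.5), with a median of 86.5 CpGs. With 100 or more CpGs, 13 of 27 did (48.1%, 28.7 to 68.1), against the 30.4% of the cytosolic proteins and 70.6% of all protein-coding promoters. Their start site was in the peak in 10 of the 27, against 5 of 46 (10.9%) and 45.6% of all protein-coding promoters. The factors that assemble the small subunit had new peaks at 14 of 50 promoters (28.0%, 16.2 to 42.5), and those that assemble the large subunit at 19 of 39 (48.7%, 32.4 to 65.2). RNA polymerase I, which makes the ribosomal RNA, had them at 5 of 15 subunits and factors (33.3%, 11.8 to 61.6). Of promoters with an island, 28.9% of the mitochondrial ribosomal proteins and 28.6% of the small subunit factors had a new peak. A share below that of protein-coding promoters with an island was thus not particular to the cytosolic ribosomal proteins. The interval of the cytosolic ribosomal proteins, 9.09 to 25.5, lay below that of the large subunit factors and overlapped the other three.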

How the data were processed

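HEK293 genomic DNA was enriched with MBD2 and sequenced, 1 library for each of 4 conditions. Bowtie2, at its defaults, was what the authors used for mapping (hg19); the submitters' processing notes also name MACS2, FastQC and deepTools, and peak settings were not given in the sources used here. The deposited list of new peaks in the wild type library has 10 columns: coordinates, a score (10 times the −log10 q), the fold (a ratio of fragments to background, each plus 1), −log10 p, −log10 q and the summit offset. Total reads are unknown from the list. The authors' internal rescaling concerned coverage tracks, which were not used here.

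Fragments at the summit and background were solved from the fold and the deposited −log10 p, which a Poisson tail met within 0.000403 for every peak. A promoter counted as called where at least 1 bp of a peak fell within 1000 bp of the canonical start site (GENCODE 44 lifted to hg19, 19881 of 20163 protein-coding genes). CpG islands were rebuilt from GRCh37 by length over 200 bp, GC of at least 50% and observed to expected CpGs over 0.6. Python 3.11.15, pandas 2.3.3 and scipy 1.17.1 were used. The solving of fragments, the rebuilding of islands and the counting of CpGs were checked on simulated data, and the other steps were not. The members, gene lists and alternatives were chosen with earlier results of these data known. Values were given for the 12 highest and 6 lowest folds (together the 14 called members), the 12 uncalled members with most CpGs, those on X and Y, those with several peaks, and those with a peak at 1000 to 2000 bp; other named members were chosen for their known roles after the values were seen. Sequences were read from GRCh37 for members with the highest folds and the 4 uncalled members with most CpGs, leaving out chromosome 8. Results for some members are not reported here.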

Additional observations from a re-analysis of the deposited data

How the results depend on the processing

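Of 42 values recomputed with other settings, 30 stayed within the limits set (1.5 times a count or fold, the 95% interval of a share, the quartile range of a distance) and 12 moved. Of 5 values added after seeing the data, the 4 without some members, among them those on X and Y, stayed within them. The other changed direction: the median summit position of the called members went from −419.5 to 0.5 bp when measured from the nearest start of any protein-coding transcript. Stricter peaks changed the counts: with peaks of at least the median fold, 7 members were called (8.05%) against 25.9% of all protein-coding promoters, and 2 had the start site in a peak. With a −log10 q of at least 10, 7 were called (8.05%) against 24.9%, and 3 start sites were covered. The share of all protein-coding promoters was 40.3% with 500 bp on either side, 43.2% with 2000 bp and 44.6% with the start sites of all protein-coding transcripts, where 11 members had one in a peak, and the lower share of covered start sites among called members was lost; the narrower promoter left out RPL7 and the wider one added RPS15, RPS7 and RPL41. No paired analysis was possible because each condition had 1 library, and leaving out a replicate was not possible for the same reason. At the lowest background at least 6 fragments were needed for a call, and how this limit depends on the CpGs of a promoter was not tested. The list holds 16 peaks on alternative haplotypes of hg19, 5 of them on those of chromosome 6. Peaks on haplotypes were not assigned to any promoter.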

Other observations

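Other protein-coding genes with a TOP-like start, a C followed by at least 4 pyrimidines, had a higher share than the ribosomal protein genes. The pattern was read at the annotated start only, so these need not be genes with a working TOP motif. Of 853 such genes, 397 had a new peak at the promoter (46.5%, 43.2 to 49.95), against 42.0% of the 18941 with another start. Among those with a CpG island the shares were 59.01% (55.2 to 62.8) of 666 and 57.8% of 13617. All of these shares were above the interval of the ribosomal protein genes, 9.09 to 25.5%. Those within islands were also above the interval of the members with an island, 9.78 to 27.3%. Whether the start sequence has a part in the low share was not tested.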
